A study of Homo sapiens with 9 samples.

Results

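The 48 autophagy and lysosome genes described here were the rows of a deposited expression table whose gene name is one of 48 symbols, out of 60671 rows in all. Each of the 48 names matched 1 row. Macroautophagy encloses cytoplasm in a double membrane: the ULK kinase complex starts it, the class III PI3-kinase complex marks the membrane with a phosphoinositide, WIPI proteins read that mark, ATG9 vesicles bring lipid, and ubiquitin-like conjugation attaches ATG8 proteins to the growing membrane. Cargo receptors such as SQSTM1 and NBR1 hold cargo to the ATG8 proteins, and the closed vesicle fuses with the lysosome, where the V-ATPase pumps protons and hydrolases digest the contents. The MiT/TFE transcription factors TFEB, TFE3 and MITF bind E-boxes near many of these genes, and in heart muscle the pathway is known for clearing damaged mitochondria and proteins.

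Polyadenylated RNA was measured in the human line AC16, which came from a fusion of ventricular heart cells and fibroblasts. Its groups of 3 libraries each were high glucose plus chrysin (a flavonoid found in plants), high glucose alone and low glucose. No source used here states how much glucose or chrysin was given or for how long. Since no label says that replicates were separate cultures, p-values cover only the spread between the libraries at hand, which may be technical. AC16 is 1 line, and its classical heart muscle markers were nearly absent: 8 of 10 cardiomyocyte markers stayed under 0.5 FPKM in every library, MYL2 was listed at 0 throughout, and NPPB made up most of their summed level. That sum ran from 10.1 to 11.9 FPKM with chrysin, from 13.2 to 15.9 FPKM in high glucose and from 19.5 to 20.3 FPKM in low glucose. The 8 fibroblast markers summed to 6346 to 6508 FPKM with chrysin, 9036 to 9511 FPKM in high glucose and 7631 to 7929 FPKM in low glucose. COL1A1 and VIM made up most of that sum. In high against low glucose COL1A1, COL1A2 and THY1 were called higher, while COL3A1, DCN, LUM, VIM and PDGFRB were not called. With chrysin against high glucose THY1 was not called, and the other fibroblast markers were lower, by log2 fold changes of -0.06 (VIM) to -1.75 (DCN). The 6 macrophage markers, counted because macrophages are rich in lysosomes, summed to 2.94 to 3.22 FPKM with chrysin, 5.12 to 5.81 FPKM in high glucose and 3.40 to 3.63 FPKM in low glucose. CD14 made up most of that sum, averaging 1.94 FPKM with chrysin, 3.91 FPKM in high glucose and 2.22 FPKM in low glucose. PTPRC and CSF1R were not called in any comparison, and the other 3 stayed under 0.5 FPKM in every library. Reads of genes encoded in mitochondrial DNA were 3.80% to 3.89% of all reads with chrysin, 2.80% to 3.04% in high glucose and 2.79% to 2.90% in low glucose. In RNA from whole cultures, fewer cells of a kind and less RNA per cell cannot be told apart, and the part of these shifts in the results on autophagy and lysosome genes was not tested.

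Values are FPKM (fragments per kilobase of gene model, scaled to the depth of the library). Levels of different genes depend on the gene length used. The values imply 1120 bases for SQSTM1, whose exons cover 7654, and 4706 bases for ATG14, whose exons cover 5052. Comparisons between libraries depend on scaling, and median-of-ratios factors ran from 0.9851 (low glucose library 2) to 1.029 (chrysin library 2). Steps in the low values gave back the reads behind them, 18171842 to 23024300 per library. The 48 genes rested on 21 reads (GABARAP) to 12660 reads (PSAP) in a library, and the median coefficient of variation between replicates was 4.23% with chrysin, 4.27% in high glucose and 3.22% in low glucose. Among genes whose reads summed to over 10000 across 2 replicates, high glucose library 1 differed more from the other 2 of its group (28.1 and 31.5 in chi-square per gene) than any other replicate pair did (4.82 to 7.44). Fold changes are differences in log2(FPKM + 0.5), which understates the change of low genes, with adjusted p-values from limma over 16996 genes. A gene was called at an adjusted p under 0.05.

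Averaged over the 9 libraries, the 48 genes spanned a wide range of levels. CTSB, a cysteine protease of the lysosome, was the highest at 386 FPKM, and SQSTM1, the receptor that carries ubiquitin-tagged cargo, led the autophagy genes at 230 FPKM. The lowest were GABARAP, an ATG8 protein, at 2.81 FPKM, and CTSK, a collagen-degrading protease best known from osteoclasts, at 3.96 FPKM. TFEB averaged 5.96 FPKM against 54.7 FPKM for its relative TFE3. GABARAP needs care, because GENCODE 29 places another gene, AC120057.2, over 30.5% of its exon bases on the same strand, and that gene was listed at 0 in every library.

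With chrysin, 13 of the 48 genes rose relative to high glucose alone, 17 fell and 18 were not called. That is 62.5% called, against 45.8% of all genes tested (24.9% higher and 20.9% lower). The genes tested include many at low levels. Among genes reaching a mean of 5 FPKM in any group, 3218 of 10414 rose and 3061 fell. Of the 47 genes here that reached it, 14 rose and 17 fell, so the shares lay closer. The median log2 fold change of the 48 was -0.01, beside 0.03 over all genes. By role, genes that start autophagy and carry cargo were among those that fell, while V-ATPase genes, the calcium channel gene MCOLN1 and the glycogen-digesting enzyme gene GAA were among those that rose. Without high glucose library 1 the counts were 16 higher and 16 lower.

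**Figure D1:**
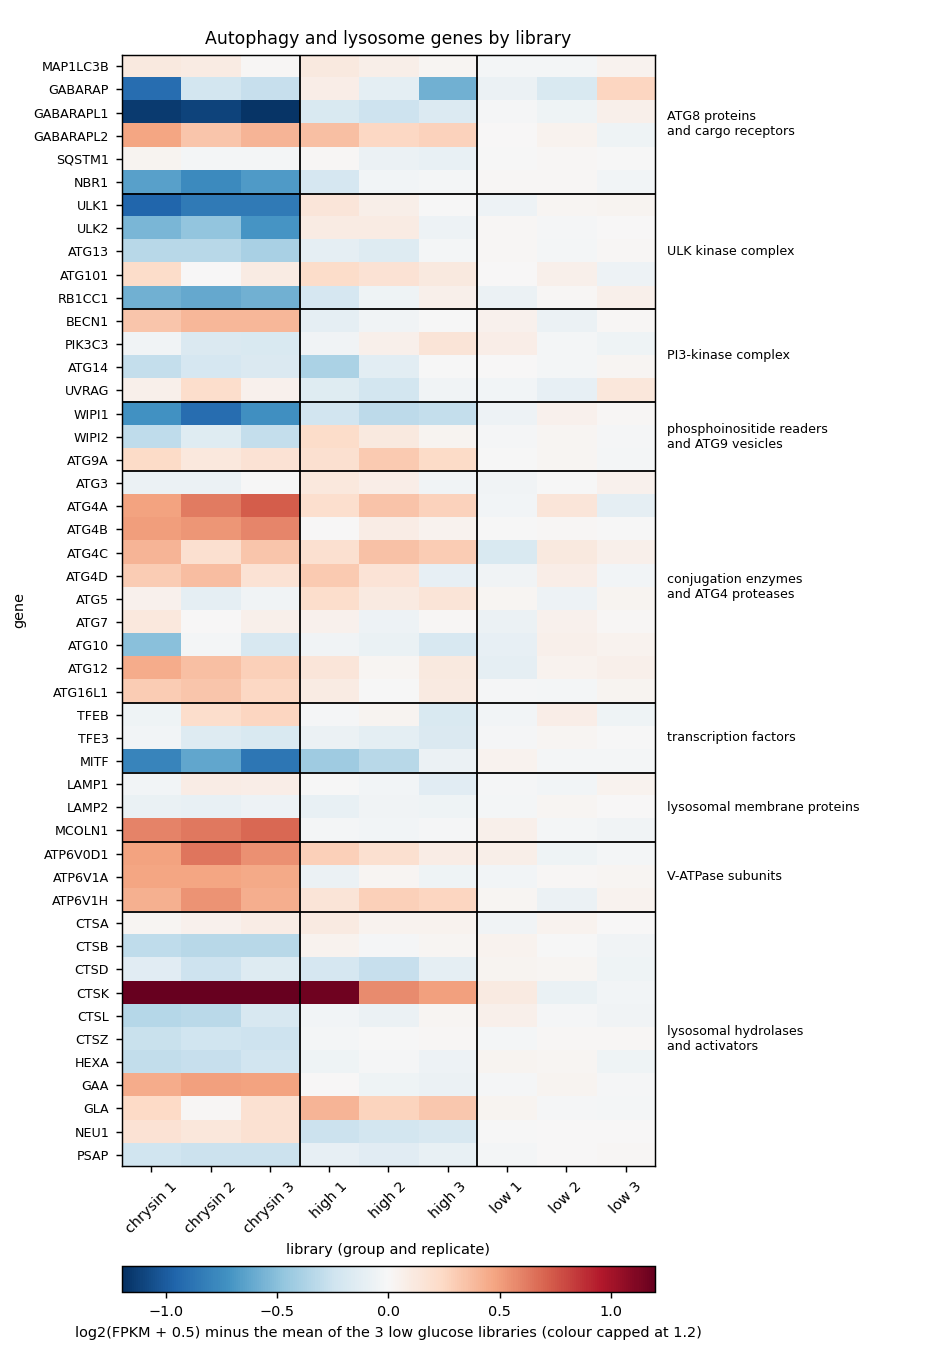
Heat map of the 48 genes (rows, grouped by role) in the 9 libraries (columns, chrysin, high and low glucose), coloured by log2(FPKM + 0.5) minus the gene's mean over the 3 low glucose libraries, with the colour range capped. GABARAPL1, ULK1 and NBR1 are low in all 3 chrysin libraries, MCOLN1, ATP6V1A and GAA are high in all 3, and CTSK is high in both chrysin and high glucose libraries.

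ATG8 proteins, which coat the autophagosome membrane and bind cargo receptors, did not move together. GABARAPL1 (chromosome 12, 10212458 to 10223130, plus strand, hg38) had 33.4, 34.3 and 32.8 FPKM with chrysin, against 66.0, 62.9 and 66.8 FPKM in high glucose. The groups were far apart, and the log2 fold change was -0.95 (SE 0.04, adjusted p = 5.3e-08). MAP1LC3B, the most widely used autophagosome marker, had 63.1, 62.2 and 58.9 FPKM with chrysin, against 63.1, 61.2 and 59.1 FPKM in high glucose. Those ranges overlapped almost entirely (0.01, SE 0.04, adjusted p = 0.91), and the sign of so small a difference turned with median-of-ratios scaling (-0.02). GABARAPL2 averaged 84.8 ± 4.2 FPKM with chrysin and 78.7 ± 3.1 FPKM in high glucose (SD, n = 3 each). The difference of 0.11 was not called (adjusted p = 0.069). It was called without chrysin library 2 (adjusted p = 0.031) or high glucose library 1 (adjusted p = 0.029). A filter at 5 FPKM also gave the call, with an adjusted p just under 0.05. GABARAP was not called either (-0.26, SE 0.22, adjusted p = 0.35).

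Of the cargo receptors, NBR1, which binds ubiquitinated cargo, fell, and SQSTM1 was not called. NBR1 (chromosome 17, 43170481 to 43211689, plus strand) had 37.3, 34.6 and 36.7 FPKM with chrysin, against 51.2, 57.6 and 58.1 FPKM in high glucose. No chrysin library came near a high glucose one, and the log2 fold change was -0.61 (SE 0.05, adjusted p = 4.8e-06). SQSTM1 had 237, 229 and 229 FPKM with chrysin, against 235, 221 and 219 FPKM in high glucose. The groups overlapped (0.04, SE 0.03, adjusted p = 0.3), although the difference was called without high glucose library 1 (0.07, adjusted p = 0.034). The genes MGAT4B and MRNIP overlap 22.0% of the SQSTM1 exon bases on the other strand, and MRNIP itself rose with chrysin (0.42, adjusted p = 0.00025). No source used here says if strand was used in counting, so reads of such pairs cannot be told apart.

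The ULK complex, the kinase assembly that starts autophagosome formation, was lower with chrysin in 4 of its 5 genes and higher in none. Called genes were 80.0% of these, beside 45.8% of all genes tested. ULK1, its catalytic kinase (chromosome 12, 131894651 to 131923167, plus strand), had 15.4, 16.6 and 16.6 FPKM with chrysin, against 33.5, 31.8 and 30.2 FPKM in high glucose. Every chrysin library lay far below every high glucose library, with a log2 fold change of -0.95 (SE 0.05, adjusted p = 2.8e-07). ULK2, the related kinase, was at a lower level, with 4.81, 5.10 and 4.27 FPKM with chrysin, against 7.82, 7.83 and 6.94 FPKM in high glucose. Its groups did not overlap (-0.62, SE 0.08, adjusted p = 0.00011). RB1CC1, the scaffold also called FIP200, had 34.8, 33.8 and 34.6 FPKM with chrysin, against 45.3, 50.2 and 54.3 FPKM in high glucose. It too fell in every library (-0.53, SE 0.06, adjusted p = 3.8e-05). ATG13, the adaptor that links kinase and scaffold, fell less (-0.26, adjusted p = 0.00033), and its partner ATG101 was not called (-0.06, adjusted p = 0.39).

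Genes of the class III PI3-kinase complex went both ways. BECN1, its regulatory subunit, averaged 149 ± 4 FPKM with chrysin and 110 ± 4.1 FPKM in high glucose (SD, n = 3 each), a rise of 0.43 (SE 0.04, adjusted p = 9.6e-06). CNTD1 and PSME3 overlap 17.1% of the BECN1 exon bases on the other strand, and PSME3 also rose (0.21, adjusted p = 3.6e-05). PIK3C3, the lipid kinase itself, fell slightly (-0.19, adjusted p = 0.027), and UVRAG, a subunit of the endosomal form of the complex, rose (0.25, adjusted p = 0.025). Both calls were lost without a filter on low values (adjusted p = 0.056 for PIK3C3 and 0.051 for UVRAG) and without single libraries. PIK3C3 was not called without chrysin library 2 or 3 or high glucose library 2 or 3 (adjusted p = 0.087, 0.093, 0.062 and 0.1). UVRAG was not called without chrysin library 2 or high glucose library 1 or 2 (adjusted p = 0.1, 0.055 and 0.09). ATG14, the subunit that directs the complex to autophagy, was not called (-0.05, SE 0.09, adjusted p = 0.71).

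Both phosphoinositide readers fell with chrysin. WIPI1 averaged 28.8 ± 2 FPKM with chrysin and 41.2 ± 1.1 FPKM in high glucose (-0.51, SE 0.05, adjusted p = 2e-05), and WIPI2, which recruits the conjugation machinery, averaged 60.8 ± 3.8 FPKM with chrysin and 78.6 ± 5 FPKM in high glucose (-0.37, SE 0.05, adjusted p = 0.0002; SD, n = 3 each). ARSG and a second gene overlap 28.1% of the WIPI1 exon bases on the other strand, and ARSG was not called (0.46, adjusted p = 0.053). ATG9A, the lipid scramblase of the vesicles, was not called (-0.07, adjusted p = 0.22).

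Among the 10 genes of ATG8 conjugation and processing, 4 rose, 1 fell and 5 were not called. ATG4B, the main protease that trims ATG8 proteins and releases them from membranes, averaged 83.8 ± 2.6 FPKM with chrysin and 59.3 ± 1.9 FPKM in high glucose (SD, n = 3 each), a rise of 0.49 (SE 0.03, adjusted p = 1.5e-06). Its relative ATG4A rose by 0.34 (adjusted p = 0.0066), and so did 2 parts of the complex that completes ATG8 attachment, the ubiquitin-like ATG12 (0.27, adjusted p = 0.0024) and ATG16L1 (0.23, adjusted p = 0.0019). ATG5, the protein to which ATG12 is joined, fell instead (-0.19, adjusted p = 0.014), a call that was lost without chrysin library 2 (adjusted p = 0.057). The E1-like ATG7 (0.06), the E2-like ATG3 (-0.11) and ATG10 (-0.14), and the proteases ATG4C (0.02) and ATG4D (0.16) were not called, with adjusted p-values of 0.082 to 0.85. Of these, ATG3 was called lower with median-of-ratios scaling (-0.13, adjusted p = 0.035), with voom on the recovered reads (-0.14, adjusted p = 0.017) and without high glucose library 3 (-0.15, adjusted p = 0.011), and ATG4D was called higher without high glucose library 1 (adjusted p = 0.043).

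The MiT/TFE transcription factor genes were not called higher with chrysin. TFEB had 5.58, 6.82 and 7.04 FPKM with chrysin, against 5.74, 5.96 and 5.06 FPKM in high glucose. The lowest chrysin library lay inside the high glucose range, and the difference was not called (0.19, SE 0.10, adjusted p = 0.13) unless that library, chrysin library 1, was left out (0.29, adjusted p = 0.031). TFE3 averaged 53.2 ± 3.1 FPKM with chrysin and 53.1 ± 1.9 FPKM in high glucose (SD, n = 3 each; adjusted p = 0.99). MITF, known as the master regulator of melanocytes, fell (-0.49, SE 0.09, adjusted p = 0.0015), while 3 of 4 melanocyte markers stayed under 0.5 FPKM in every library and TYR was listed at 0. These are RNA levels, and the location of the proteins, by which TFEB is largely controlled, was not measured.

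In the lysosomal membrane, the channel gene rose and the structural LAMP genes were not called. MCOLN1, the calcium release channel of the lysosome, had 36.6, 37.5 and 38.9 FPKM with chrysin, against 23.6, 23.4 and 23.7 FPKM in high glucose. The high glucose values were nearly identical and all far below the chrysin values (0.66, SE 0.04, adjusted p = 8.4e-07). LAMP1, an abundant coat protein of the lysosome's inner face, had 115, 125 and 124 FPKM with chrysin, against 117, 115 and 107 FPKM in high glucose. The groups overlapped (0.10, SE 0.04, adjusted p = 0.08), and the difference was called without chrysin library 1 (adjusted p = 0.028) or high glucose library 1 (adjusted p = 0.045). LAMP2, its relative, was not called (-0.02, adjusted p = 0.65).

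All 3 V-ATPase subunits among the 48 genes rose with chrysin (100% called, beside 45.8% of all genes tested). ATP6V1A, the catalytic subunit that burns ATP (chromosome 3, 113747019 to 113812056, plus strand), averaged 95.4 ± 0.68 FPKM with chrysin and 67.5 ± 2.4 FPKM in high glucose (SD, n = 3 each; 0.50, SE 0.03, adjusted p = 1.1e-06). ATP6V0D1, which couples the ATPase to the membrane rotor, averaged 138 ± 7.4 FPKM with chrysin and 107 ± 7.3 FPKM in high glucose (0.37, SE 0.06, adjusted p = 0.0003). ATP6V1H, a regulatory subunit, averaged 88.9 ± 3.9 FPKM with chrysin and 75.2 ± 3.5 FPKM in high glucose (0.24, SE 0.05, adjusted p = 0.0015). No chrysin library overlapped a high glucose library for any of these genes.

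Hydrolase genes split, with 3 of 11 higher, 6 lower and 2 not called (81.8% called, beside 45.8% of all genes tested). CTSK had 6.30, 5.85 and 6.86 FPKM with chrysin, against 4.91, 3.07 and 2.89 FPKM in high glucose. It rose (0.76, SE 0.16, adjusted p = 0.0028) on only 31 to 146 reads a library over all groups, with high glucose library 1 the highest of its group. Among the osteoclast markers, 3 of 4 stayed under 0.5 FPKM in every library, and CALCR and DCSTAMP were listed at 0. GAA, the acid glucosidase that digests glycogen in the lysosome and whose loss causes Pompe disease, had 61.1, 63.0 and 62.5 FPKM with chrysin, against 44.8, 43.0 and 42.5 FPKM in high glucose. The 2 groups were well separated (0.51, SE 0.03, adjusted p = 9.8e-07). NEU1, the lysosomal sialidase, also rose (0.38, SE 0.04, adjusted p = 9.2e-06).

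The falling hydrolases included the most abundant one. CTSB had 334, 327 and 328 FPKM with chrysin, against 424, 408 and 419 FPKM in high glucose. The spread within each group was small beside that gap (-0.34, SE 0.03, adjusted p = 3.7e-06). The related proteases CTSL (-0.26, adjusted p = 0.001) and CTSZ (-0.25, adjusted p = 1.2e-05) fell too, as did HEXA, a subunit of the enzyme lost in Tay-Sachs disease (-0.22, adjusted p = 0.00093), and PSAP, the precursor of the saposin activators (-0.15, adjusted p = 0.00035). GLA, the galactosidase lost in Fabry disease, was called lower (-0.19, adjusted p = 0.027), but not without chrysin library 2 or high glucose library 1 or 3 (adjusted p = 0.096, 0.088 and 0.057), and not with no filter on low values or with only the groups compared (adjusted p = 0.058 in each). CTSD, the main aspartic protease of the lysosome, had 30.2, 27.9 and 29.8 FPKM with chrysin, against 28.8, 27.4 and 30.8 FPKM in high glucose. Those values overlapped (0.02, SE 0.05, adjusted p = 0.82), with a sign that turned under median-of-ratios scaling (-0.01). AC068580.4 lies over 41.7% of the CTSD exon bases on the same strand. CTSA, which protects NEU1 in the lysosome, was not called (-0.01, adjusted p = 0.79).

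**Figure D2:**
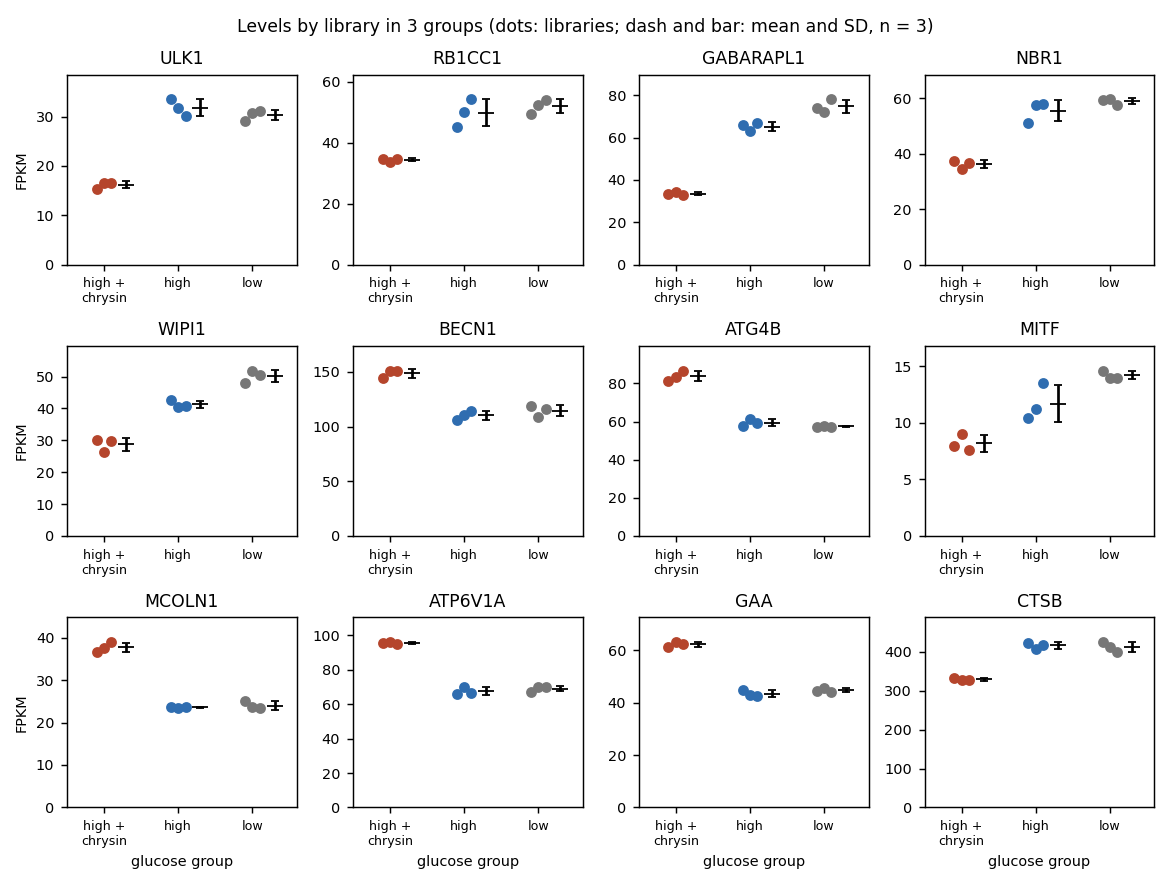
FPKM of 12 of the genes in each library (dots) with the mean and SD of each group (dash and bar, n = 3), for high glucose with chrysin, high glucose and low glucose from left to right in each panel. ULK1, RB1CC1, GABARAPL1, NBR1, WIPI1, MITF and CTSB are lower with chrysin than in high glucose, and BECN1, ATG4B, MCOLN1, ATP6V1A and GAA are higher, with no overlap between these groups.

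**Figure D3:**
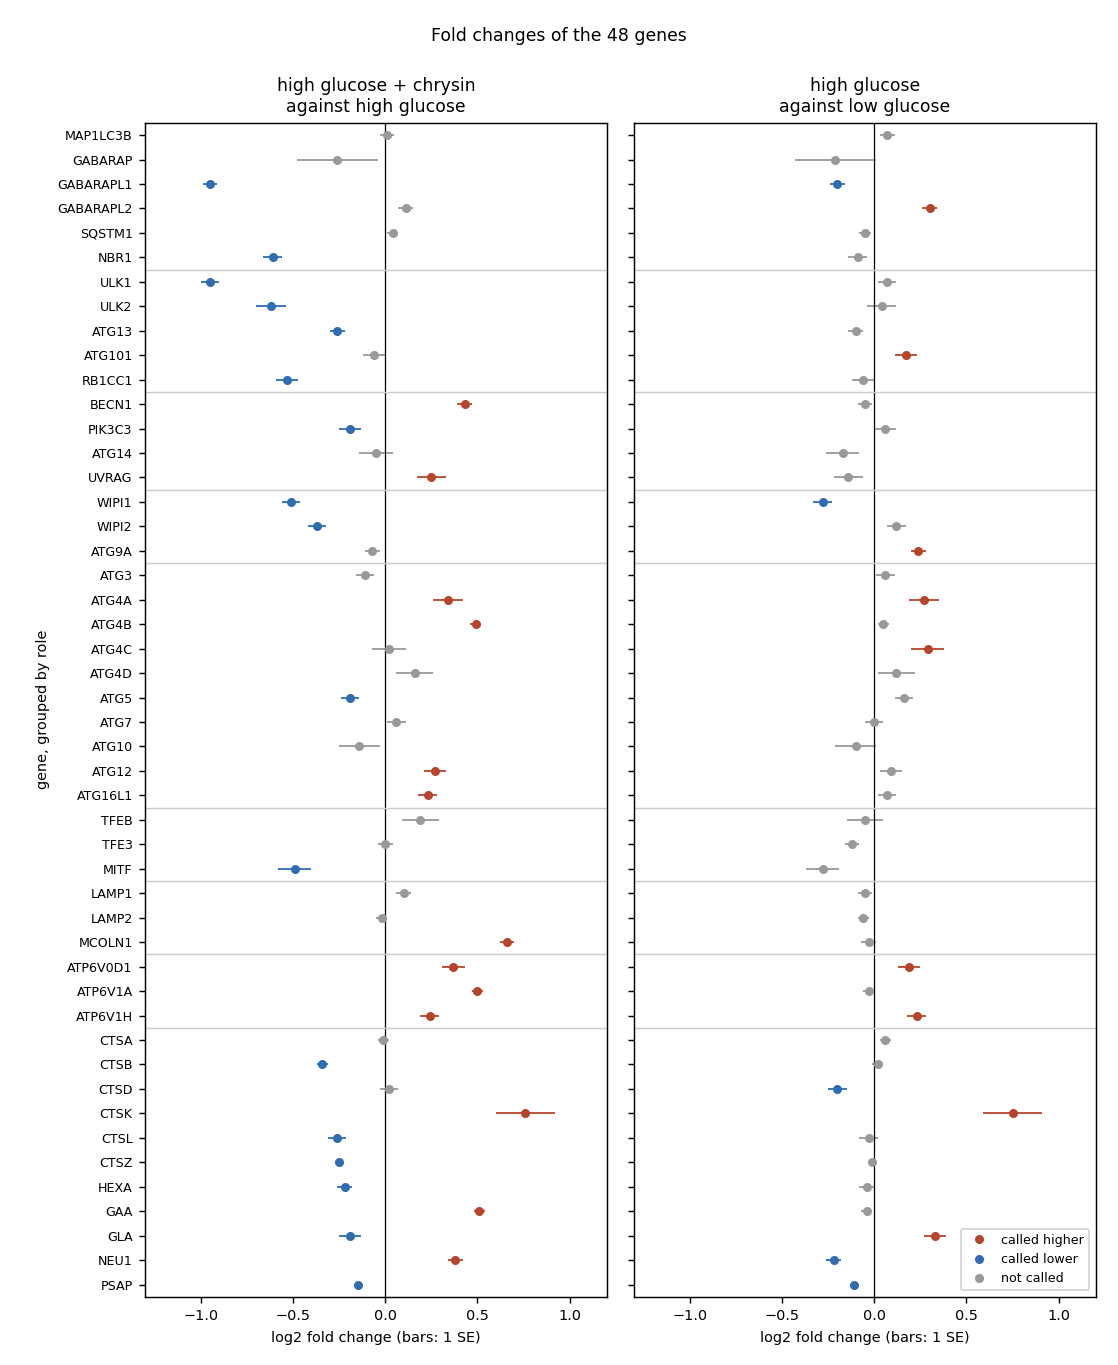
Log2 fold change with its standard error for each of the 48 genes, grouped by role, with chrysin against high glucose on the left and high against low glucose on the right. On the left all 5 ULK complex genes lie below 0, 4 of them called, and the 3 V-ATPase genes lie above it. On the right 34 of the 48 genes are not called. Over all genes tested, 45.8% were called in the comparison on the left and 23.5% in that on the right.

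MiT/TFE factors are known to act on lysosomal genes through an E-box, so the promoters of the 48 genes were read for the letters CACGTG and the longer palindromes that contain it, TCACGTGA and a 10-base form with 1 more base at each end (G before it and C after it). Each motif reads the same on both strands, and each longer one contains the shorter, so matches are nested. RefSeq promoters on GRCh38.p14, from 250 bases before to 50 bases after the start, were matched by symbol for 38 of the 48 genes, of the V-ATPase genes ATP6V0D1 alone. CACGTG was present in 9 of these 38 (ATG14, ATG3, LAMP1, MCOLN1, ATP6V0D1, CTSA, CTSD, GAA and NEU1), beside 8.77% of all 27305 genes with a promoter in the table. TCACGTGA was present in 6, beside 1.18% of genes, and the 10-base form in 2, beside 0.421%. Per promoter, the shares over all 35116 promoters were 7.26%, 0.98% and 0.353%. The 48 genes and the search were chosen with their changes known, so the matches are not set against those changes, and a match describes these letters and is not a shown binding site. The motif was searched because it is already known at lysosomal genes, so the shares beside all genes are no test of enrichment. The promoters of 6 lysosomal genes with a match are printed to show how the motifs lie, each 5′ to 3′ with the longest motif at each match in capitals:
MCOLN1 (chr19:7522374-7522673, plus strand): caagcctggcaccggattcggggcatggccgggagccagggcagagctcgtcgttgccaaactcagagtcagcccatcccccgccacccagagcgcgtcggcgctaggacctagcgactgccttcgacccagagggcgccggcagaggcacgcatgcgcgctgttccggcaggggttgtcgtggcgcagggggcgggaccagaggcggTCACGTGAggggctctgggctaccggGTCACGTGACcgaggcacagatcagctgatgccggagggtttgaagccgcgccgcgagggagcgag
GAA (chr17:80101331-80101630, plus strand): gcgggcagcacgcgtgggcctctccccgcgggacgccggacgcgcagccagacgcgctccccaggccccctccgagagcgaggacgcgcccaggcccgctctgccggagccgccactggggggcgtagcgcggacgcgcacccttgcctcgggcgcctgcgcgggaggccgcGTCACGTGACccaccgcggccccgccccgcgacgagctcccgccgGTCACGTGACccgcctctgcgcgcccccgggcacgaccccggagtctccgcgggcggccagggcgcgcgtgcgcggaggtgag
ATP6V0D1 (chr16:67481108-67481407, minus strand): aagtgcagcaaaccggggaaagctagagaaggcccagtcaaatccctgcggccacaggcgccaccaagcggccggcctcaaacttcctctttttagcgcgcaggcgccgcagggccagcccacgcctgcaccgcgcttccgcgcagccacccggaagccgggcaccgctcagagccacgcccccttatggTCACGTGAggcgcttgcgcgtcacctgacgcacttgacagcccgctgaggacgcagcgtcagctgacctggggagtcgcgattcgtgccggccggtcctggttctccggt
NEU1 (chr6:31862772-31863071, minus strand): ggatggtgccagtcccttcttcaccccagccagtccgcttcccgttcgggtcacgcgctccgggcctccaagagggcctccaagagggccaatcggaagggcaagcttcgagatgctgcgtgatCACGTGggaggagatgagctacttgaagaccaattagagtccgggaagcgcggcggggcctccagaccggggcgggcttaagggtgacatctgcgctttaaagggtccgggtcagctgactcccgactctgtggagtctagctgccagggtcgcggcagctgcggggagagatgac
LAMP1 (chr13:113296989-113297288, plus strand): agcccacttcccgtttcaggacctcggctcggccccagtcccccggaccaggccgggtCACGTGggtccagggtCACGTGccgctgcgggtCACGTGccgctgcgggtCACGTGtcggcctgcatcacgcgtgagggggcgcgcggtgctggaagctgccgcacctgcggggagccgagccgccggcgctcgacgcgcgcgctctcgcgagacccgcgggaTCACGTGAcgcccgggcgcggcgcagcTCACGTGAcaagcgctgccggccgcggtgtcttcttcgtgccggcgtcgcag
CTSA (chr20:45891085-45891384, plus strand): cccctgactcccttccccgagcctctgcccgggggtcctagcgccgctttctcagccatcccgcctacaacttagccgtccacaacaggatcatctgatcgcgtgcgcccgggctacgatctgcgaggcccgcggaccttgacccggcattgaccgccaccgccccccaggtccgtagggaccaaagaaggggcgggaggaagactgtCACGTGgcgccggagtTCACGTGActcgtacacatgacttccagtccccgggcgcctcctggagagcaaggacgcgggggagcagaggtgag

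MCOLN1 and GAA were the 2 genes of the 38 with the full 10-base form. In GAA it occurs at 2 places, starting 78 and 33 bases before the start site, and in MCOLN1 it starts 16 bases before the start, with a TCACGTGA starting 42 bases before the start site. LAMP1 has 6 matches in its 300 bases, while MCOLN1 and GAA have 2 matches each. ATG14, ATG3 and CTSD also had a match and are not printed above. The 6 printed genes were picked with the calls known and include each matched gene called higher with chrysin against high glucose. They therefore show nothing on motif and call. The promoters of all remaining genes of the 38 held none of the 3 motifs. These include BECN1, ATG4A, ATG4B, ATG12 and ATG16L1 as well as ULK1, GABARAPL1, NBR1 and MAP1LC3B.

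High against low glucose changed fewer of these genes. Of the 48, 9 rose in high glucose, 5 fell and 34 were not called, which is 29.2% called beside 23.5% of all genes tested (14.6% higher and 8.91% lower). Among genes reaching a mean of 5 FPKM in any group, 2459 of 10414 rose and 1517 fell. Of the 47 genes here that reached it, 10 rose and 7 fell, a share no larger than that of all such genes. The median log2 fold change of the 48 was -0.02, beside 0.02 over all genes. The split between rises and falls depended on scaling: median-of-ratios scaling gave 5 higher and 9 lower, limma voom on recovered reads 8 and 11, and a correction for GC content and length 7 and 10. Without high glucose library 1 there were 7 higher and 6 lower, and without high glucose library 2 or low glucose library 3 there were 5 higher.

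The high glucose rises were led by CTSK, GLA, GABARAPL2 and 2 ATG4 proteases. CTSK had 4.91, 3.07 and 2.89 FPKM in high glucose, against 2.10, 1.78 and 1.86 FPKM in low glucose. The groups did not overlap (0.75, SE 0.16, adjusted p = 0.0072), on few reads. GLA had 32.6, 29.5 and 30.8 FPKM in high glucose, against 25.0, 24.3 and 24.1 FPKM in low glucose, and rose by 0.33 (SE 0.06, adjusted p = 0.0029). GABARAPL2 had 82.2, 76.2 and 77.7 FPKM in high glucose, against 64.2, 65.8 and 61.8 FPKM in low glucose. Every high glucose library was above every low glucose one (0.30, SE 0.04, adjusted p = 0.00085).

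The ATG4 proteases were weaker. ATG4C had 10.8, 12.1 and 11.7 FPKM in high glucose, against 8.20, 10.2 and 9.80 FPKM in low glucose (0.29, SE 0.09, adjusted p = 0.039). ATG4A had 9.75, 10.8 and 10.3 FPKM in high glucose, against 8.20, 9.38 and 7.76 FPKM in low glucose (0.27, SE 0.08, adjusted p = 0.041). The groups did not overlap for either, but median-of-ratios scaling ended both calls (adjusted p = 0.061 for ATG4C and 0.062 for ATG4A), as did no filter (0.093 and 0.092) and a fit of only the groups compared (0.078 and 0.067), and the replicate block ended that of ATG4C (adjusted p = 0.059). Leaving out high glucose library 2 or 3 or low glucose library 1 or 3 also ended both calls, with adjusted p-values of 0.061 to 0.13 for ATG4C and 0.088 to 0.14 for ATG4A. Leaving out chrysin library 3 ended the ATG4C call (adjusted p = 0.058) and leaving out chrysin library 2 the ATG4A call (adjusted p = 0.062), although neither holds cells of that comparison, because all groups share the estimate of spread.

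Other rises in high glucose came from ATG9A and from 2 V-ATPase genes. ATG9A had 35.0, 38.0 and 35.8 FPKM in high glucose, against 30.5, 31.0 and 30.1 FPKM in low glucose (0.24, SE 0.04, adjusted p = 0.0023). AC068946.2 lies over 38.8% of the ATG9A exon bases on the same strand. ATP6V1H had 71.3, 77.9 and 76.4 FPKM in high glucose, against 65.0, 61.1 and 66.0 FPKM in low glucose (0.23, SE 0.05, adjusted p = 0.0048). Neither gene's groups overlapped. ATP6V0D1 (0.19, adjusted p = 0.027) was not called without high glucose library 1 or 2 or low glucose library 2 or 3 (adjusted p = 0.083, 0.071, 0.096 and 0.087), or with median-of-ratios scaling (adjusted p = 0.052), only the groups compared (0.057), GC and length correction (0.14, adjusted p = 0.078) or no filter (adjusted p = 0.08). ATG101 (0.17, adjusted p = 0.047) stood at the threshold, and leaving out chrysin library 3 or any of the 6 high and low glucose libraries ended its call, with adjusted p-values of 0.051 to 0.16. Median-of-ratios scaling (adjusted p = 0.098), limma voom on recovered reads (0.065), GC and length correction (0.08, adjusted p = 0.32) and no filter (0.11) ended it too.

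The 5 falls in high glucose were WIPI1, GABARAPL1, NEU1, CTSD and PSAP. WIPI1 had 42.5, 40.3 and 40.9 FPKM in high glucose, against 48.0, 51.8 and 50.5 FPKM in low glucose (-0.28, SE 0.05, adjusted p = 0.0036). ARSG, which overlaps it on the other strand, also fell (-0.70, adjusted p = 0.014). GABARAPL1 averaged 65.2 ± 2.1 FPKM in high glucose and 74.8 ± 3.1 FPKM in low glucose (-0.20, SE 0.04, adjusted p = 0.0054), and NEU1 averaged 30.1 ± 0.77 FPKM in high glucose and 35.1 ± 0.16 FPKM in low glucose (-0.22, SE 0.04, adjusted p = 0.0014; SD, n = 3 each). PSAP fell by 0.11 on the log2 scale (adjusted p = 0.0062). CTSD had 28.8, 27.4 and 30.8 FPKM in high glucose, against 34.0, 33.8 and 32.0 FPKM in low glucose. Its call (-0.20, SE 0.05, adjusted p = 0.019) was lost without high glucose library 2 or low glucose library 1 or 2 (adjusted p = 0.071, 0.068 and 0.063).

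Several central genes were not called between high and low glucose. ULK1 had 33.5, 31.8 and 30.2 FPKM in high glucose, against 29.1, 30.8 and 31.1 FPKM in low glucose (0.07, SE 0.05, adjusted p = 0.39). MAP1LC3B had 63.1, 61.2 and 59.1 FPKM in high glucose, against 57.4, 57.2 and 60.1 FPKM in low glucose (0.07, SE 0.04, adjusted p = 0.23). The groups overlapped for both. SQSTM1 had 235, 221 and 219 FPKM in high glucose, against 232, 234 and 231 FPKM in low glucose (-0.05, SE 0.03, adjusted p = 0.31), and was called lower with GC and length correction (-0.11, adjusted p = 0.015) and without high glucose library 1 (-0.08, adjusted p = 0.043). TFEB had 5.74, 5.96 and 5.06 FPKM in high glucose, against 5.66, 6.17 and 5.60 FPKM in low glucose (-0.05, adjusted p = 0.74). LAMP1 had 117, 115 and 107 FPKM in high glucose, against 116, 115 and 121 FPKM in low glucose (-0.05, adjusted p = 0.41). CTSB had 424, 408 and 419 FPKM in high glucose, against 425, 412 and 401 FPKM in low glucose (0.02, adjusted p = 0.73). These groups overlapped in every case. MITF (-0.28, adjusted p = 0.054), ATG13 (-0.10, adjusted p = 0.11) and TFE3 (-0.12, adjusted p = 0.071) were not called, but each was called lower under several alternatives. For MITF these were median-of-ratios scaling (adjusted p = 0.037), limma voom on recovered reads (0.0035), GC and length correction (0.035), a filter at 5 FPKM (0.03) and leaving out high glucose library 3 (0.0097). For ATG13 they were median-of-ratios scaling (adjusted p = 0.045), voom (0.044), GC and length correction (0.035) and leaving out high glucose library 3 (0.035). For TFE3 they were median-of-ratios scaling (adjusted p = 0.037), voom (0.013), GC and length correction (-0.21, adjusted p = 0.0057), a filter at 5 FPKM (0.046) and leaving out chrysin library 1 (0.036). GAA (-0.04, adjusted p = 0.44) was called lower with GC and length correction alone (-0.13, adjusted p = 0.0065), LAMP2 with median-of-ratios scaling (adjusted p = 0.039) and voom (0.023), and NBR1 and ATG14 with voom alone (adjusted p = 0.049 and 0.03). ATG5 was called higher with the replicate block (adjusted p = 0.039) and a filter at 5 FPKM (0.041). The remaining genes not called had log2 fold changes of -0.21 (GABARAP) to 0.16 (ATG5).

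Against low glucose, the cells given high glucose with chrysin differed in the largest number of these genes, with 16 higher, 17 lower and 15 not called. That is 68.8% called, beside 51.0% of all genes tested (29.7% higher and 21.3% lower), with a median of 0.02 beside 0.05 over all genes. Among genes reaching a mean of 5 FPKM in any group, 3830 of 10414 were higher and 3093 lower. Of the 47 genes here that reached it, 17 were higher and 17 lower. CTSK led the rises, with 6.30, 5.85 and 6.86 FPKM with chrysin, against 2.10, 1.78 and 1.86 FPKM in low glucose (1.50, SE 0.16, adjusted p = 2.1e-05). GABARAPL1 led the falls, with 33.4, 34.3 and 32.8 FPKM with chrysin, against 74.2, 72.1 and 78.1 FPKM in low glucose (-1.15, SE 0.04, adjusted p = 7.1e-09). Neither gene's groups came close to each other. MCOLN1 had 36.6, 37.5 and 38.9 FPKM with chrysin, against 25.1, 23.6 and 23.3 FPKM in low glucose (0.64, adjusted p = 7.3e-07). ATG4A had 12.0, 13.2 and 14.3 FPKM with chrysin, against 8.20, 9.38 and 7.76 FPKM in low glucose (0.61, adjusted p = 0.00013). Both were higher in every chrysin library.

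The rest of the 8 largest differences from low glucose were falls. ULK1 had 15.4, 16.6 and 16.6 FPKM with chrysin, against 29.1, 30.8 and 31.1 FPKM in low glucose (-0.88, adjusted p = 3.2e-07). WIPI1 had 30.0, 26.4 and 29.9 FPKM with chrysin, against 48.0, 51.8 and 50.5 FPKM in low glucose (-0.79, adjusted p = 7.3e-07). Each was below the low glucose range in all 3 chrysin libraries. MITF had 7.97, 9.02 and 7.57 FPKM with chrysin, against 14.6, 14.0 and 14.0 FPKM in low glucose (-0.76, adjusted p = 5.3e-05). NBR1 had 37.3, 34.6 and 36.7 FPKM with chrysin, against 59.6, 59.7 and 57.7 FPKM in low glucose (-0.70, adjusted p = 1.3e-06). The groups of these genes did not overlap. Next in size came falls of RB1CC1 (-0.59, adjusted p = 1.3e-05) and ULK2 (-0.58, adjusted p = 0.00015). Rises of ATP6V0D1 (0.56, adjusted p = 1.1e-05) and ATG4B (0.54, adjusted p = 5.7e-07) followed.

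MAP1LC3B (0.08, adjusted p = 0.13), SQSTM1 (-0.01, adjusted p = 0.89), TFEB (0.14, adjusted p = 0.26) and LAMP1 (0.05, adjusted p = 0.41) were not called in this comparison, CTSB fell (-0.32, adjusted p = 3.5e-06), and CTSD fell (-0.18, adjusted p = 0.013) except without chrysin library 2 (adjusted p = 0.057). ATG4C (0.31, adjusted p = 0.013) was not called without chrysin library 1 (adjusted p = 0.056). ATG9A (0.18, adjusted p = 0.0052) was not called with limma voom on recovered reads or GC and length correction (adjusted p = 0.064 in each). The small differences of ATG4D (0.28, adjusted p = 0.031), TFE3 (-0.12, adjusted p = 0.041) and LAMP2 (-0.08, adjusted p = 0.036) were lost without any of several single libraries. For ATG4D these were chrysin library 1 or 2 and low glucose library 1 or 3 (adjusted p = 0.078, 0.11, 0.09 and 0.083). For TFE3 they were chrysin library 2 or 3, high glucose library 2 and low glucose library 1, 2 or 3 (adjusted p = 0.13, 0.15, 0.054, 0.067, 0.11 and 0.086). For LAMP2 they were each chrysin library and low glucose library 2 or 3 (adjusted p of 0.067 to 0.11), and the replicate block ended its call too (adjusted p = 0.051). No filter ended the calls of ATG4D (adjusted p = 0.076) and TFE3 (0.075), and median-of-ratios scaling that of ATG4D (0.076). ATG101, ATG10, ATG14 and GLA were called without some single library, with adjusted p-values of 0.0078 to 0.041. GLA was also called higher with the replicate block (adjusted p = 0.035) and a filter at 5 FPKM (0.045). Median-of-ratios scaling and voom called PIK3C3 (adjusted p = 0.026 and 0.008), ATG14 (0.027 and 0.0019) and ATG10 (0.04 and 0.021) lower, and GC and length correction called ATG14 (0.039) and GABARAP (0.049) lower. ATG14 was also called lower with only the groups compared (adjusted p = 0.017).

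Set side by side, the comparisons share the high glucose libraries, so their values are not independent. NEU1 gave 0.38 with chrysin against high glucose and -0.22 in high against low glucose, with 39.8, 38.6 and 39.9 FPKM with chrysin, 29.3, 30.2 and 30.8 FPKM in high glucose and 35.0, 35.3 and 35.2 FPKM in low glucose. GLA gave -0.19 with chrysin and 0.33 in high glucose. CTSK gave 0.76 and 0.75, ATG4A 0.34 and 0.27, ATP6V1H 0.24 and 0.23 and ATP6V0D1 0.37 and 0.19, each higher in both steps. GABARAPL1 gave -0.95 and -0.20, WIPI1 -0.51 and -0.28 and PSAP -0.15 and -0.11, each lower in both.

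A wider list of 103 other genes of the pathway was measured beside the 48. Of these, 98 passed the filter on low values; ATP6V0C, CLN3, MAP1LC3C, ATG9B and TFEC did not. With chrysin against high glucose, 37 of the 98 rose and 24 fell (62.2%, beside 45.8% of all genes), and in high against low glucose 12 rose and 16 fell (28.6%, beside 23.5%; 10 and 25 with limma voom on recovered reads). Among genes reaching a mean of 5 FPKM in any group, 34 of 90 on this list rose with chrysin and 23 fell. Over all such genes, 3218 of 10414 rose and 3061 fell. In high against low glucose 13 of the 90 rose and 19 fell, beside 2459 and 1517 of the 10414. The counts by role that follow were taken with the filter at 0.5 FPKM and are set beside all genes tested. Genes reaching 5 FPKM were called more often than that in both comparisons. Of the other V-ATPase genes, 9 of 12 rose with chrysin and 1 fell (83.3% called, beside 45.8% of all genes). They included ATP6V1E1, a stalk subunit (214 ± 3.9 FPKM with chrysin and 139 ± 6.3 FPKM in high glucose, SD, n = 3 each; 0.62, adjusted p = 7.4e-07), ATP6V0A2, the membrane subunit that marks Golgi and endosomal pumps (0.66, adjusted p = 2.6e-05), and ATP6V0E1 (0.38, adjusted p = 3e-05). High glucose gave less ATP6V0A2 than low glucose (-0.35, adjusted p = 0.0051). In that comparison 2 of the 12 rose and 2 fell (33.3% called, beside 23.5% of all genes).

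**Figure D4:**
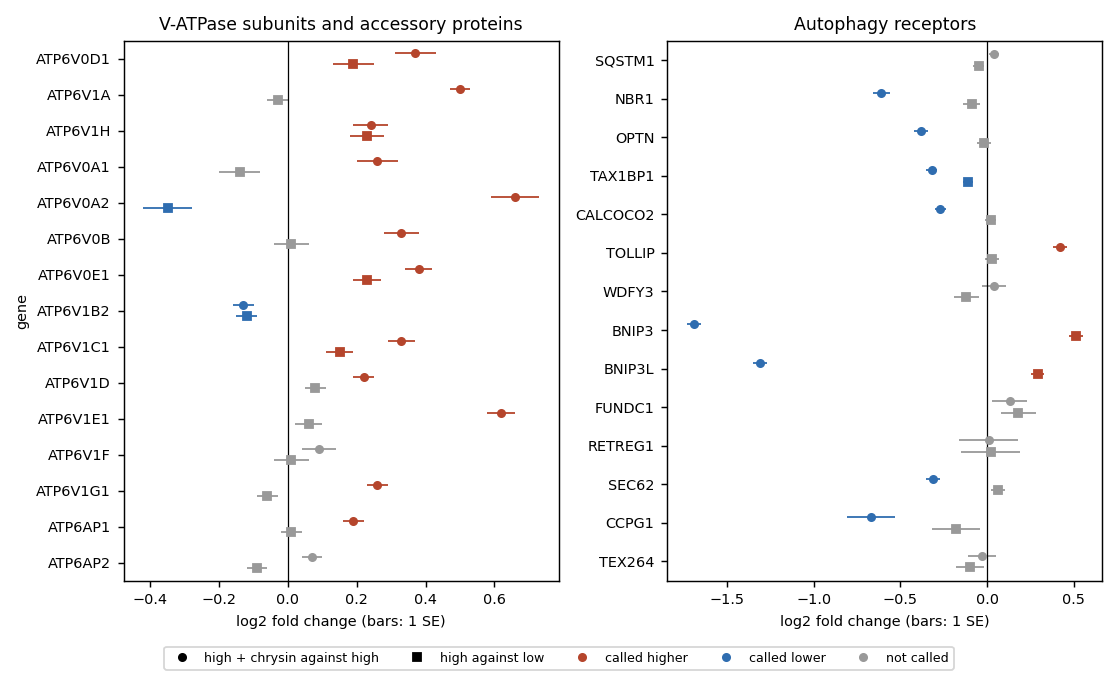
Log2 fold changes with standard errors of the V-ATPase genes (left) and of the autophagy receptors (right), circles for chrysin against high glucose and squares for high against low glucose, coloured by call. With chrysin 12 of the 15 V-ATPase genes tested were called higher, while 8 of 14 receptors were called lower, with BNIP3 and BNIP3L farthest from 0. Over all genes tested, 24.9% were called higher with chrysin and 20.9% lower.

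Of the other autophagy receptors, 7 of 12 fell with chrysin and 1 rose (66.7% called, beside 45.8%). In high against low glucose 2 of the 12 rose and 1 fell (25.0% called, beside 23.5%). The mitophagy receptors BNIP3 and BNIP3L, which sit on the mitochondrial surface and are known hypoxia targets, fell most with chrysin. BNIP3 had 28.3, 29.6 and 27.2 FPKM with chrysin, against 92.1, 92.9 and 92.5 FPKM in high glucose and 67.5, 62.4 and 65.1 FPKM in low glucose. The 3 groups were fully separated, at -1.69 with chrysin (SE 0.04, adjusted p = 1.7e-09) and 0.51 in high against low glucose (SE 0.04, adjusted p = 1.7e-05). BNIP3L had 72.0, 69.0 and 66.7 FPKM with chrysin, against 168, 170 and 181 FPKM in high glucose and 136, 142 and 147 FPKM in low glucose. It gave -1.31 with chrysin (adjusted p = 6.5e-09) and 0.29 in high against low glucose (adjusted p = 0.00073). The ubiquitin-binding receptor TAX1BP1 (-0.32, adjusted p = 1.6e-05) fell as well, while TOLLIP, an adaptor for ubiquitinated aggregates, rose (0.42, adjusted p = 6.9e-06).

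The other lysosomal hydrolases split evenly with chrysin, 10 of 33 higher and 10 lower (60.6% called, beside 45.8% of all genes tested, many at low levels), much as CTSB and GAA parted within the 48. In high against low glucose 2 of the 33 rose and 5 fell (21.2% called, beside 23.5%). Only hydrolases that rose with chrysin are named next. SGSH, a heparan sulfate sulfatase, rose (0.49, adjusted p = 6.8e-06), as did ASAH1, the acid ceramidase (0.47, adjusted p = 0.00012). Membrane and sorting genes were higher with chrysin in 6 of 16 and lower in 3 (56.2% called, beside 45.8%). In high against low glucose 1 of the 16 rose and 3 fell (25.0% called, beside 23.5%). Of this role too, only genes that rose with chrysin are named. NPC1, the cholesterol exporter of the lysosome, had 75.5, 71.3 and 72.2 FPKM with chrysin, against 46.4, 48.5 and 47.6 FPKM in high glucose and 61.8, 63.0 and 63.8 FPKM in low glucose. It was higher with chrysin (0.61, adjusted p = 3e-07) and lower in high than in low glucose (-0.40, adjusted p = 2.6e-05). M6PR, a mannose 6-phosphate receptor that sorts hydrolases to the lysosome, rose with chrysin (0.38, adjusted p = 2.1e-06).

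Among other core autophagy genes, 8 of 20 rose with chrysin and 3 fell (55.0% called, beside 45.8% of all genes). SNAP29, which takes part in fusion of autophagosome and lysosome, rose (0.42, adjusted p = 3.8e-05), and so did TECPR1 (0.42, adjusted p = 3.9e-05) and RUBCN, a negative regulator of the PI3-kinase complex (0.36, adjusted p = 5.7e-05). ATG2A, the lipid transfer protein that works with ATG9A, fell (-0.36, adjusted p = 5.6e-05). In high against low glucose 5 rose and 3 fell (40.0% called, beside 23.5% of all genes), with VMP1 (-0.38, adjusted p = 1.3e-05) and TMEM41B (-0.59, adjusted p = 2.8e-05), a pair of scramblases of the endoplasmic reticulum, both lower. Of the genes that regulate TFEB, 3 of 5 tested rose with chrysin and none fell (60.0% called, beside 45.8%). In high against low glucose 2 of the 5 fell and none rose (40.0% called, beside 23.5%). With chrysin against low glucose only 1 of the 5 was called, and their median log2 fold change was -0.04. FLCN and FNIP1, partners in the complex that keeps TFEB out of the nucleus, were higher with chrysin than in high glucose (0.34, adjusted p = 0.0016, and 0.31, adjusted p = 0.0007). Both were lower in high than in low glucose (-0.46, adjusted p = 0.00074, and -0.35, adjusted p = 0.00097). Beside these shares by role, genes reaching a mean of 5 FPKM in any group were called more often than all genes tested. With chrysin 3218 of 10414 such genes rose and 3061 fell, and in high against low glucose 2459 rose and 1517 fell.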

How the data were processed

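RNA was sequenced from 9 AC16 libraries, 3 a group, grouped by their treatment labels. The deposited table holds FPKM for 60671 genes, a unit read from its values. The submitters' processing notes list HISAT2 2.2.1, fastp 0.23.4, HTSeq 0.13.5, StringTie 2.2.1 and the build hg38 without roles; for annotation and strand, the release and setting were not given in the sources used here. Whole reads were recovered, within 0.001 reads, for 28230 genes (100% of those detected in at least 2 libraries); 4119 genes seen in a single library were set to 1 read.

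Log2(FPKM + 0.5) was tested in limma 3.58.1 (R 4.3.3) with a trend of variance on mean, keeping genes whose mean reached 0.5 FPKM in any group. The 9 libraries shared 1 fit, with no block, and two-sided p-values were adjusted by Benjamini-Hochberg over the 16996 genes tested. An exact permutation test of a single gene, 3 libraries against 3, has 0.1 as its smallest p. Positions and overlaps came from GENCODE 29.

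The genes, lists and tests were chosen with earlier results of these data known. Values are given library by library for the 8 called genes of the 48 with the largest change per comparison and non-overlapping groups. They are also given for MAP1LC3B, SQSTM1, ULK1, TFEB, LAMP1, CTSB and CTSD. From each wider list, counts and up to 4 called genes with the smallest p were taken. That rule picked 23 genes with chrysin against high glucose and 21 in high against low glucose, and only part of them are named. A hydrolase gene that this rule names is not reported here. BNIP3, BNIP3L, NPC1 and NEU1 are given by library because of their values. Alternatives were median-of-ratios scaling, pseudocounts of 0.1 or 1, a filter at 5 FPKM or none, limma voom on the recovered reads, a replicate block, only the groups compared, GC and length correction by loess (span 0.4, 96.1% of genes with both known), and leaving out each library.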

Additional observations from a re-analysis of the deposited data

How the results depend on the processing

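Of the genes called among the 48, 26 of 30 with chrysin against high glucose, 9 of 14 in high against low glucose and 27 of 33 with chrysin against low glucose kept their call under all 18 alternatives, and none called turned direction. In high against low glucose the higher count was 5 with no filter and 5 with median-of-ratios scaling, and the lower count was 9 with median-of-ratios scaling, 11 with limma voom on recovered reads and 10 with GC and length correction; the wider list had 25 lower with voom. Leaving out 1 library each gave 5 to 9 higher and 4 to 7 lower in that comparison, 12 to 16 and 14 to 17 with chrysin against high glucose, and 14 to 17 and 15 to 18 with chrysin against low glucose. Over all genes, median-of-ratios scaling moved the share of high glucose calls that were higher to 51.5%, against 62.2%; voom called 4096 higher and 4209 lower with chrysin against high glucose, and 2296 and 2213 in high against low glucose. The cause was not tested. Turned signs, all of genes not called either way, were small. With median-of-ratios scaling, voom and GC and length correction, CTSB gave -0.013, -0.014 and -0.012 and ATG7 -0.026, -0.026 and -0.012 in high against low glucose, MAP1LC3B -0.022, -0.025 and -0.037 with chrysin against high glucose, and LAMP1 -0.012, -0.011 and -0.029 and CTSA -0.005, -0.003 and -0.011 with chrysin against low glucose. With median-of-ratios scaling and voom, chrysin against high glucose gave CTSD -0.012 and -0.008, ATG4C -0.004 and -0.006 and TFE3 -0.028 and -0.031. With GC and length correction, high against low glucose gave ULK1 -0.003, CTSA -0.018 and ATG4B -0.03, and chrysin against high glucose gave CTSA 0.007. Leaving out single libraries turned signs with chrysin against high glucose for MAP1LC3B (-0.017 to 0.036), ATG14 (-0.153 to 0.039), ATG4C (-0.025 to 0.080), TFE3 (-0.046 to 0.029), CTSA (-0.029 to 0.010) and CTSD (-0.023 to 0.060). In high against low glucose it did so for RB1CC1 (-0.122 to 0.007), ATG7 (-0.033 to 0.034), TFEB (-0.099 to 0.009), MCOLN1 (-0.047 to 0.008), CTSB (-0.005 to 0.037), CTSL (-0.051 to 0.003) and CTSZ (-0.019 to 0.003), and with chrysin against low glucose for SQSTM1 (-0.023 to 0.002) and ATG5 (-0.076 to 0.003). Libraries with the same replicate number did not deviate together (correlations of -0.015 to 0.008); with the replicate block the 48 genes gave 13 higher and 17 lower with chrysin against high glucose, 9 and 5 in high against low, and 17 and 16 with chrysin against low. Behind these counts, the block ended the call of ATG4C (adjusted p = 0.059) and added ATG5 (0.039) in high against low glucose, and ended that of LAMP2 (0.051) and added GLA (0.035) with chrysin against low glucose. The planned edgeR test on recovered reads was not run. Depth limits GABARAP (21 to 58 reads) and CTSK (31 to 146 reads) most.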

Other observations

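Genes with very low values despite roles in every cell stood out among the pathway. ATP6V0C, the ring subunit of the V-ATPase rotor, averaged 0.420 FPKM with chrysin, 0.252 FPKM in high glucose and 0.444 FPKM in low glucose, on 3 to 12 reads a library, while its partner ATP6V0D1 averaged 138 FPKM with chrysin, 107 FPKM in high glucose and 93.4 FPKM in low glucose. GENCODE 29 places AC093525.1 and AC093525.2 over 72.1% of its exon bases on the same strand. CLN3, a lysosomal membrane protein lost in juvenile Batten disease, averaged 0.294 FPKM with chrysin, 0.389 FPKM in high glucose and 0.477 FPKM in low glucose, with AC138894.1 over 25.2% of its exon bases on the same strand. GABARAP likewise shares exon bases with another gene on its strand. ATG9A, at 34.6 FPKM with chrysin, 36.3 in high and 30.6 in low glucose, shares a larger part of its exons this way than GABARAP does. So does CTSD, at 29.3 FPKM with chrysin, 29.0 in high and 33.3 in low glucose. The part of these overlaps in the levels was not tested.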
